A study of Mus musculus with 4 samples.

Results

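Olfactory sustentacular-like cells were 293 of the 16486 barcodes of the P1 maxillary molar library that had at least 1000 unique molecular identifiers (UMIs) and under 10% mitochondrial UMIs. This is 1.78% of them (exact Clopper-Pearson 95% interval 1.58% to 1.99%). A barcode was counted when it held at least 3 UMIs summed over Cbr2, Cyp2a5, Cyp2g1 and Ermn, with at least 2 of these 4 genes detected, and at most 5 UMIs of Col1a1, Col1a2 and Col3a1. The levels of these genes therefore chose the cells and are given as a description. The study profiled the Wnt pathway in developing mouse molars by droplet single-cell RNA sequencing of 4 libraries, each from 6 pooled wild-type tooth organs (genotype label WTB6), of the maxillary or mandibular molar at postnatal day 1 (P1) or at embryonic stage E15.5, which the labels give as E15. The files held 56940 barcodes, of which 48761 passed the filter. There was 1 library per stage and jaw, so nothing was tested between libraries or between cell groups, and every interval below covers counting error only.

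Sustentacular cells are the supporting cells of the olfactory epithelium, which lines the upper nasal cavity. They span the epithelium from the basal lamina to the lumen, wrap the olfactory neurons, and carry apical microvilli. They are known for very high levels of enzymes that metabolise odorants and inhaled chemicals: phase I enzymes such as cytochromes P450 oxidise a compound, and phase II enzymes attach glucuronic acid, sulfate or glutathione to it. The labels give the tissue of the library as a molar tooth organ.

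The 4 libraries held these cells very unequally. The same rule found 2 barcodes among 16014 in the P1 mandibular library, 0 of 9679 in the E15.5 maxillary library, which allows a share of up to 0.0310%, and 0 of 6582 in the E15.5 mandibular library, which allows up to 0.0456%. Both mandibular barcodes held 2 Cbr2 UMIs and 1 Ermn UMI and no UMI of Cyp2a5, Cyp2g1, Otx2, Aox2 or Ugt2a1, in totals of 23838 and 15731 UMIs. The total depth was 125867423 UMIs over the passing barcodes at P1 maxillary, 134993495 at P1 mandibular, 108043651 at E15.5 maxillary and 84917319 at E15.5 mandibular. The median depth of a passing barcode was 4186 UMIs at P1 maxillary, 5831 at P1 mandibular, 9841 at E15.5 maxillary and 11613 at E15.5 mandibular.

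Cyp2a5, a cytochrome P450 that oxidises nicotine, coumarin and nasal toxicants, had 1387 UMIs in the P1 maxillary library, 0 at P1 mandibular, 2 at E15.5 maxillary and 0 at E15.5 mandibular. Cyp2g1, a cytochrome P450 of the olfactory mucosa, had 697, 0, 1 and 1 in the same order. Only the P1 maxillary library was above the floor of 3 counts for either gene. Ugt2a1, the olfactory UDP-glucuronosyltransferase, was not used by the rule and had 609, 2, 2 and 0 UMIs. Scgb1c1, a secretoglobin of olfactory mucus, had 1092, 6, 2 and 2, and Otx2, a homeobox transcription factor of the anterior head, had 943, 19, 8 and 0. Aox2, an aldehyde oxidase, had 3620, 91, 68 and 34 UMIs. The library's level of Aox2 was 28.8 UMIs per 1000000 UMIs (CPM) at P1 maxillary, and at most 0.674 CPM in the others. Gstm1, a glutathione S-transferase, was less restricted, at 126, 21.9, 20.1 and 24.0 CPM. Cbr2, a carbonyl reductase, stood at 43.4, 8.89, 7.95 and 2.47 CPM and Ermn, an actin-binding protein, at 13.4, 3.74, 0.454 and 0.106 CPM. For each of these genes the P1 maxillary library was the highest of the 4. With pooled organs and a single library of each kind, the jaw, the stage and the dissection cannot be told apart.

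**Figure D1:**
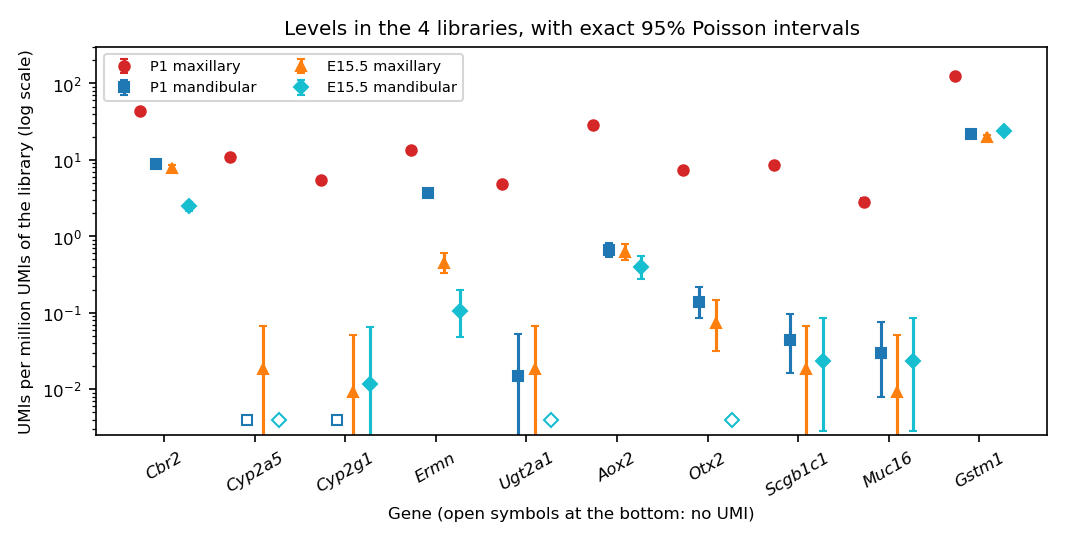
UMIs per 1000000 UMIs of each library (log axis) for the 4 rule genes and 6 other genes, with exact 95% Poisson intervals; filled symbols are libraries with a UMI and open symbols libraries with none. The P1 maxillary library is the highest for each gene, with Aox2 at 28.8 CPM against at most 0.674 CPM elsewhere.

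Barcode sequences were shared between the P1 libraries, and this bears on the cells used for comparison. Of the passing P1 maxillary barcodes, 6923 of 16486 (42.0%) also occurred in the P1 mandibular library, against 61 (0.370%) in the E15.5 maxillary and 26 (0.158%) in the E15.5 mandibular library. None of the 293 sustentacular-like cells was among those shared with P1 mandibular (exact 95% interval up to 1.25%). They were thus 3.06% of the 9563 barcodes not shared (interval 2.73% to 3.43%), and 2 had a barcode that also occurred at E15.5 maxillary. The shared barcodes were deep, with a median of 12232 UMIs in the maxillary library and 2906 in the mandibular library. Those not shared had a median of 2585 UMIs. Of the other epithelial cells of the library, 1052 of 1605 (65.5%) were shared, and of those with enamel matrix transcripts 163 of 171 (95.3%). The part of shared barcodes in the ratios was not tested, and calls against the other epithelium are therefore counted with and without them. Ratios to all other cells include the shared barcodes unless stated.

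The cells held 1502914 UMIs, which is 1.19% of those in the passing barcodes. A cell had a median of 3671 UMIs (range 1017 to 27430), 1895 detected genes and 3.94% mitochondrial UMIs. Their depth was below the median of 4209 UMIs for the other cells and 8921 for the other epithelium, and above the 2905 of immune cells. Among barcodes not shared the order turned, with medians of 2585 UMIs over all of them and 3615 for the other epithelium.

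Among the rule genes, Cbr2 was detected in 277 cells (94.5%), Ermn in 246 (84.0%), Cyp2a5 in 205 (70.0%) and Cyp2g1 in 163 (55.6%). Their levels in the summed cells were 1942, 454, 813 and 405 CPM. A cell held a median of 14 UMIs of the 4 genes together (range 3 to 92), and 91 cells had 2 of the genes, 99 had 3 and 103 had all 4. Leaving each gene out of the rule in turn showed the gene where it had not chosen the cells. Cyp2a5 was then detected in 180 of 268 cells (67.2%, interval 61.2% to 72.8%) and Cyp2g1 in 151 of 281 (53.7%, 47.7% to 59.7%), with 0.195% and 0.389% of immune cells. Cbr2 was detected in 190 of 206 cells (92.2%) and Ermn in 176 of 223 (78.9%), with 9.34% and 0% of immune cells. Of the other epithelial cells, 20.3% held a UMI of Cbr2, 2.24% of Ermn, 0.374% of Cyp2a5 and 0.125% of Cyp2g1. Cells that met the rule had been taken out of the immune and other epithelial cells. The low shares there were thus partly set by the rule. Cyp2g1 was the least often seen. Of the UMIs of Cyp2a5 and Cyp2g1 in the passing barcodes, 88.1% and 87.2% lay in the 293 cells, against 53.5% for Cbr2 and 40.6% for Ermn. The same UMIs chose the 293 cells, so these shares are a description.

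**Figure D2:**
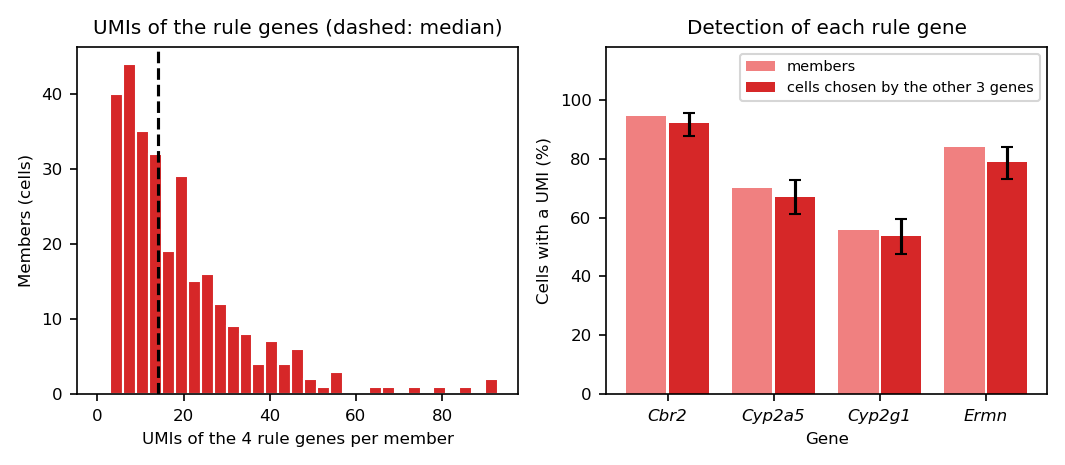
Left, histogram of UMIs of the 4 rule genes per sustentacular-like cell, with the median of 14 dashed. Right, share of cells with a UMI of each rule gene, in the 293 members (light bars) and in cells chosen by the other 3 genes (dark bars, exact 95% intervals); Cyp2g1 is the lowest at 55.6% and 53.7%.

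At the edge of the rule, a UMI of Otx2, Aox2 or Ugt2a1 was present in 13 of 14 cells with exactly 3 rule UMIs, in 84 of 84 with 4 to 9 and in 190 of 195 with 10 or more. Just outside it, 11 of 12 barcodes with 2 UMIs of 2 rule genes held one, as did 41 of 156 with at least 3 UMIs of Cbr2 and none of the other rule genes. It was present in 110 of 5513 barcodes of a group with no rule UMI, which did not hold every such barcode of the library. Of 33 barcodes left out for collagen UMIs alone, 32 held one, so the collagen limit left out barcodes with these transcripts. All 3 genes are among the 25 with the largest ratio of the sustentacular-like cells to all other cells. Their presence inside the rule is therefore a description and no separate support for it.

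Among genes of at least 100 CPM, those outside the rule with the largest ratio to all 16193 other cells were led by Ugt2a1, Aox2 and Otx2os1. Ugt2a1 stood at 321 CPM in the cells and 1.02 CPM in the others, a log2 ratio of 8.29 (95% interval 8.01 to 8.59). Aox2 stood at 1846 against 6.79 CPM (8.09, 7.97 to 8.20) and Otx2os1, a long non-coding RNA antisense to Otx2, at 1967 against 7.78 CPM (7.98, 7.88 to 8.09). These 3 genes had 79.1%, 76.7% and 75.4% of their UMIs in the passing barcodes in these 1.78% of the cells. Without the shared barcodes the log2 ratios to all other cells were smaller, at 6.19 for Ugt2a1, 6.08 for Aox2 and 6.06 for Otx2os1. Gene starts and ends here are those of GENCODE vM21 on GRCm38. Ugt2a1 lies on chromosome 5 from 87459490 to 87490871 on the minus strand, and it shares its 3′ exons with Ugt2a2: the last 500 bases of their longest transcripts were 100% identical, so 3′ reads of the pair cannot be told apart with certainty. Otx2 (chromosome 14, 48657677 to 48673819, minus strand) and Otx2os1 (48668708 to 48870683, plus strand) overlap, and whether counting used strand is not given in the sources used here.

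Promoter sequences put the leading genes side by side. RefSeq promoters (GRCm38.p6, 250 bases before to 50 after the start) were found for 21 of the 29 genes made up of the 4 rule genes and the 25 with the largest ratio. Of 14 short motifs searched on both strands, TAATCC, the core bound by Otx-type homeodomain proteins, was in 5 of the 21 genes (Acsm4, Agr2, Aox2, Cdh26 and Otx2), while 8.14% of all genes' promoters hold it. TTGGCA, a half-site of nuclear factor I, was in 7 of 21 (Acsm4, Atp13a5, Cyp2a5, Fmo2, Gm42722, Scgb1c1 and Ugt2a1), while 16.1% of all genes hold it. TATAAA was in 4 of 21 against 15.7%, and ACAATG, a Sox-type site, in 4 of 21 against 14.3%. Of the other motifs, TTGGC, which TTGGCA contains, was in 12 of 21 against 50.4%, and TATAAAA, which contains TATAAA, in 1 against 6.39%. ACAAAG, a further Sox-type site, was in 4 against 21.0%. GCGTG, the core of a xenobiotic response element, was in 5 against 35.2%. TGACTCA, the AP-1 site, was in 1 against 5.95%. The paired site of Ebf factors was in 1 against 1.06%. TTGCNCAA, a C/EBP-type site, was in 2 against 3.37%. TGACNNNGC, the antioxidant response element, was in 1 against 14.0%. The full and the shorter palindrome of nuclear factor I were in 0 of the 21, against 0.0444% and 0.925%. A match is a stretch of letters only. The promoters of a rule gene and of the 2 other enzyme genes that led the ratios above were chosen after the matches were seen and are shown 5′ to 3′ on the gene's strand, with matches in capitals: the half-site and TATAAA in Cyp2a5, the same and the Sox-type site (read as CATTGT) in Ugt2a1, and the Otx-type core (read as GGATTA) in Aox2.
Cyp2a5, chr7:26835089-26835388, plus strand: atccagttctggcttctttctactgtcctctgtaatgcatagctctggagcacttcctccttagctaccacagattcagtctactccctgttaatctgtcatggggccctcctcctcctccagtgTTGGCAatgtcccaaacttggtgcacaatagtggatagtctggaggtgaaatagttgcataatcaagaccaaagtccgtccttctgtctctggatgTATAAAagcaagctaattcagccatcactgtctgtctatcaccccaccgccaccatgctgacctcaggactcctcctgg
Ugt2a1, chr5:87490822-87491121, minus strand: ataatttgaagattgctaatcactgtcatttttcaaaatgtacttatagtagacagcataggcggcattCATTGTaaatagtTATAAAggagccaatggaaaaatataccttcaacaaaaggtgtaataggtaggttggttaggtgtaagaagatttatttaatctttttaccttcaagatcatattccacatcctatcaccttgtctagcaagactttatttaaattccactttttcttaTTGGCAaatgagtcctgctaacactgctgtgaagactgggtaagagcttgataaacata
Aox2, chr1:58278076-58278375, plus strand: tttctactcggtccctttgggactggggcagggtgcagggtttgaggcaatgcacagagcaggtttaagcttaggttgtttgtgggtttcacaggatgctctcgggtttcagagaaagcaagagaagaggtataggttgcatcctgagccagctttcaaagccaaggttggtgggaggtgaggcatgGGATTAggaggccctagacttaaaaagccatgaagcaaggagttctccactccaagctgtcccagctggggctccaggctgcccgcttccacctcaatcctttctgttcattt
In Cyp2a5 the TATAAA began at position -29 and the TTGGCA at -125 from the start. In Ugt2a1 the TTGGCA began at -9 and in Aox2 the GGATTA began at -63.

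Across all genes, 396 of 10207 tested (3.88%) were at least 4-fold higher in the cells than in all other cells, with at least 50 CPM in the higher group, and 460 (4.51%) were as much lower. Against the 1605 other epithelial cells, 412 of 9909 genes (4.16%) were higher and 267 (2.69%) lower. Leaving out the shared barcodes brought these to 180 of 10108 higher (1.78%) and 181 lower (1.79%) against the remaining 553 epithelial cells. Of the genes called with and without the shared barcodes, 174 were higher and 76 lower in both. Both the higher and the lower genes therefore depended on which epithelial cells were the reference. Against all other cells there were 330 of 10222 higher (3.23%) and 364 lower (3.56%) without them.

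**Figure D3:**
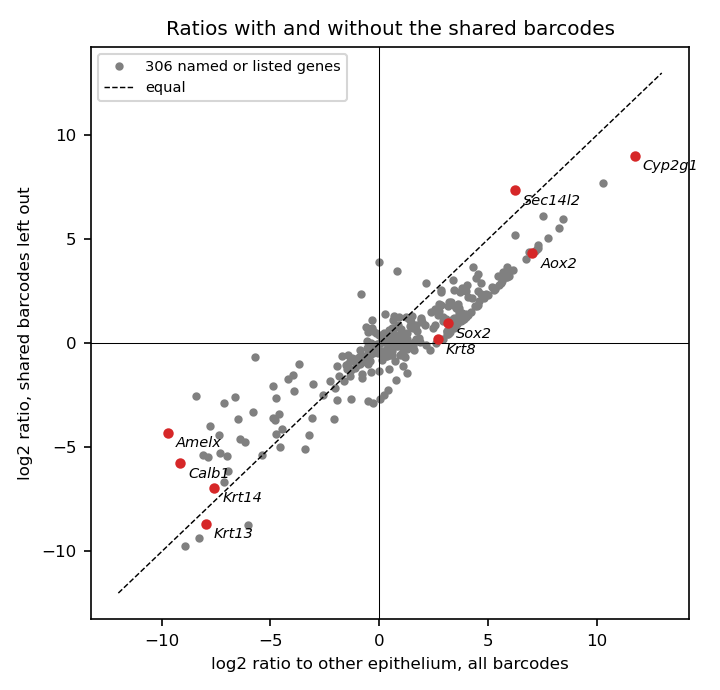
log2 ratio of the sustentacular-like cells to the other epithelium for 306 named or listed genes with a mean level of at least 10 CPM, with all barcodes (x axis) and with the shared barcodes left out (y axis); the dashed line marks equal ratios. For 218 of 306 genes the ratio was smaller without the shared barcodes, and 50 changed sign, while Aox2 went from 7.03 to 4.33.

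Genes named for sustentacular cells, other than the 4 of the rule, were largely high. Of 20, 14 were measured at the level tested and 10 of these were higher than in all other cells, with none lower. Against the other epithelium 10 of 14 were higher, and without the shared barcodes 4 of 14, which were Muc2, Sult1c1, Ugt2a1 and Fmo2. Of all genes tested, 3.88%, 4.16% and 1.78% were higher in these comparisons, in that order. The median log2 ratio over the 14 was 4.71 to all other cells, beside 0.03 over all genes. Sult1c1, a sulfotransferase, had 89.8 CPM and a log2 ratio of 8.80 to all other cells, but 12.6% of the cells held a UMI, and the ratio was 6.70 without the shared barcodes. Muc2, a secreted mucin, had 53.9 CPM (7.71, and 6.15 without the shared barcodes). Krt18 and Krt8, the keratins of simple epithelia, had 796 and 509 CPM, at log2 ratios of 4.90 and 4.09. Against the epithelium without shared barcodes Krt8 stood at 0.19 and Krt18 at 1.23. Pax6, a transcription factor of the sensory placodes, had 123 CPM (5.55), and Sox2, a transcription factor of epithelial progenitors and supporting cells, 322 CPM (4.66). Without the shared barcodes their ratios to the other epithelium were 1.82 and 0.97. Hes1, a Notch target (285 CPM, 0.55), Notch2 (136 CPM, 0.40), Epas1 (93.2 CPM, 1.40) and Cyp2j6 (39.9 CPM, 1.75) were not 4-fold apart from the other cells, but Epas1 was higher without the shared barcodes (2.09). Cyp1a2 (8 UMIs), Ugt2a2 (14), Sult1d1 (14), Steap4 (6), Hepacam2 (5) and Gpx6 (1) were too low for the comparison, so the counts rest on the other 14. The list was chosen with earlier results of these data known. It therefore describes the cells and is no independent check of the label.

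**Figure D4:**
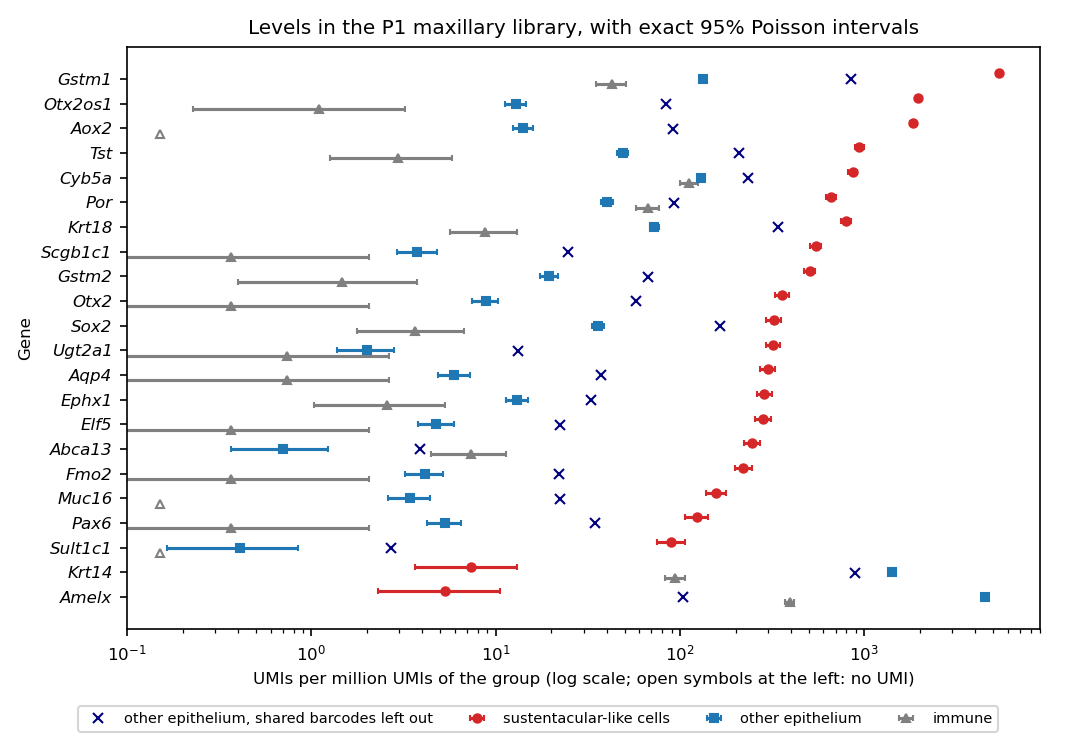
CPM (log axis) of 22 genes in the sustentacular-like cells, the other epithelium and the immune cells of the P1 maxillary library, with exact 95% Poisson intervals; crosses give the other epithelium without shared barcodes, and open symbols a group with no UMI. The cells are the highest group for the first 20 genes and the lowest for Krt14 and Amelx.

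Phase I enzymes were high as a group. Of 36 listed genes 15 were at the level tested and 11 were higher than in all other cells, with none lower. Against the epithelium 12 of 15 were higher, and without the shared barcodes 8 of 17, with Adh7 lower. The shares of all genes tested that were higher in these comparisons were 3.88%, 4.16% and 1.78%, in that order. Por, the reductase that feeds electrons to microsomal cytochromes P450, had 661 CPM (log2 ratio 4.27 to all other cells, 2.83 to the epithelium without shared barcodes). Cyb5a, cytochrome b5, another electron donor, had 866 CPM (2.49, 1.89). Ephx1, a microsomal epoxide hydrolase, had 287 CPM (5.36, 3.13). The flavin monooxygenases Fmo2 and Fmo6 had 221 and 54.6 CPM (6.80 and 8.64, or 5.02 and 6.54 without the shared barcodes) and the carboxylesterase Ces1d had 214 CPM, at 2.88 to the epithelium without shared barcodes. After thinning each cell to 1000 UMIs, Aox2 was seen in 74.4% of the cells, 2.12% of the other epithelium and 0% of the immune cells. The same shares for Por were 49.5%, 4.92% and 6.42%.

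The neighbours of these genes on the chromosome were unequally represented. Of 13 Cyp2 genes on chromosome 7 between 25802475 and 27158668, 7 had a UMI in the cells. Cyp2a5 (26835305 to 26843548) had 1222 UMIs, Cyp2g1 (26808892 to 26821205) 608 and Cyp2f2, a lung and nasal cytochrome P450, 283. Cyp2a4 had 7, Cyp2s1 4, Cyp2b19 2 and Cyp2b10 1, and the other genes none. The longest transcripts of Cyp2a4 and Cyp2a5 were 84.8% identical over their length and 44.6% over the last 500 bases, and how reads shared by the pair were counted is not given in the sources used here. Cyp2f2 was at 188 CPM in the cells and 197 CPM in the epithelium without shared barcodes. On chromosome 1 Aox2 had 2775 UMIs in the cells, against 89 for Aox3, 4 for Aox1 and 2 for Aox4.

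Conjugating and glutathione enzymes followed. Of 32 genes 19 were tested and 10 were higher than in all other cells. Without the shared barcodes 9 of 18 were, and Gstm5 (log2 ratio 1.92) was no longer called. Against the epithelium 10 of 18 were higher, and 6 of 20 without the shared barcodes. Over all genes, 3.88% were higher than all other cells and 3.23% without the shared barcodes. Against the epithelium these shares were 4.16% and 1.78%. Gsto1 was the only listed gene lower in either epithelial comparison. Gstm1 was the third most abundant gene of the cells outside mitochondrial and ribosomal genes, at 5409 CPM (interval 5292 to 5528). It stood at 133 CPM in the other epithelium, 847 CPM without the shared barcodes and 42.5 CPM in the immune cells. Gstm2, its neighbour on chromosome 3, had 506 CPM (log2 ratio 4.94 to all other cells), Gstm5 519.7 CPM (2.10), Gstm7 52.6 CPM and Gstm4 38.6 CPM, while Gstm3 had no UMI. Tst, thiosulfate sulfurtransferase, which detoxifies cyanide, had 941 CPM (5.62). Mgst1 and Gsta4 had 357 and 397 CPM (4.11 and 2.82), but 1.39 and 1.09 against the epithelium without shared barcodes.

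Secretory, junction and transport genes came next. Of 11 mucosal genes tested 9 were higher than in all other cells, and of 19 junction and apical genes 15 were, with none lower in either list. Against the epithelium the counts were 8 of 11 and 9 of 19, and without the shared barcodes 5 of 13 and 2 of 19. For these lists and the transport lists below, the shares over all genes were 3.88% higher than all other cells, 4.16% than the epithelium and 1.78% without the shared barcodes. Without the shared barcodes Lyz2 of the mucosal list was lower than all other cells, and Ltf lower than the epithelium. Among the other epithelium were 18 cells with at least 3 UMIs of Wfdc18. In them the junction list summed to 5091 CPM against 4469 CPM in the sustentacular-like cells. The mucosal list summed to 2438 against 4385 CPM, and the list named for sustentacular cells to 2490 against 3313 CPM. Of the 4385 CPM, 2021 CPM was Bpifa1. It stood at 22.5 CPM in the 275 sustentacular-like cells with under 10 of its UMIs, so much of this sum lay in few cells. Muc16, a membrane mucin of wet-surfaced epithelia, had 157 CPM (7.33 to all other cells, 2.81 to the epithelium without shared barcodes), Agr2, a chaperone of mucin folding, 254 CPM (5.90, 2.02), and Tmprss2, an apical serine protease, 62.5 CPM (6.37, 2.21). Lypd2 had 698 CPM (5.85), 1.29 against the epithelium without shared barcodes. Epcam, an epithelial adhesion molecule, was at 936 CPM in the cells and 461 CPM in the other epithelium, and Cdh1, E-cadherin, at 187 and 203 CPM. Without the shared barcodes the epithelium held 648 CPM of Epcam and 193 CPM of Cdh1. The water channels Aqp4 and Aqp5 had 299 and 99.1 CPM (5.95 and 7.20) and Aqp3 436 CPM (5.73). Of the ion and water transport list 4 of 15 were higher than all other cells and Car2 was lower, and against the epithelium 4 of 16 were higher, with Car12 and Slc4a4 lower. Without the shared barcodes Aqp4 and Aqp5 were the 2 of 15 higher than the epithelium, and none was lower. Of the efflux and uptake list 2 of 7 were higher than all other cells and Abca1 was lower, and Slc15a2 was the 1 of 7 higher than the epithelium without shared barcodes. Lrp2, the endocytic receptor megalin, had 164 CPM (7.55), Abca13, a lipid transporter, 246 CPM (7.47), and Slc15a2, a peptide transporter, 193 CPM (4.97). Leaving out the shared barcodes lowered the ratios to all other cells to 5.50 for Lrp2, 6.41 for Abca13, 3.78 for Slc15a2, 4.84 for Aqp4, 5.22 for Aqp5 and 4.65 for Aqp3. Abca13 stood at 7.33 CPM in the immune cells, 0.705 CPM in the other epithelium and 3.86 CPM without the shared barcodes.

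**Figure D5:**
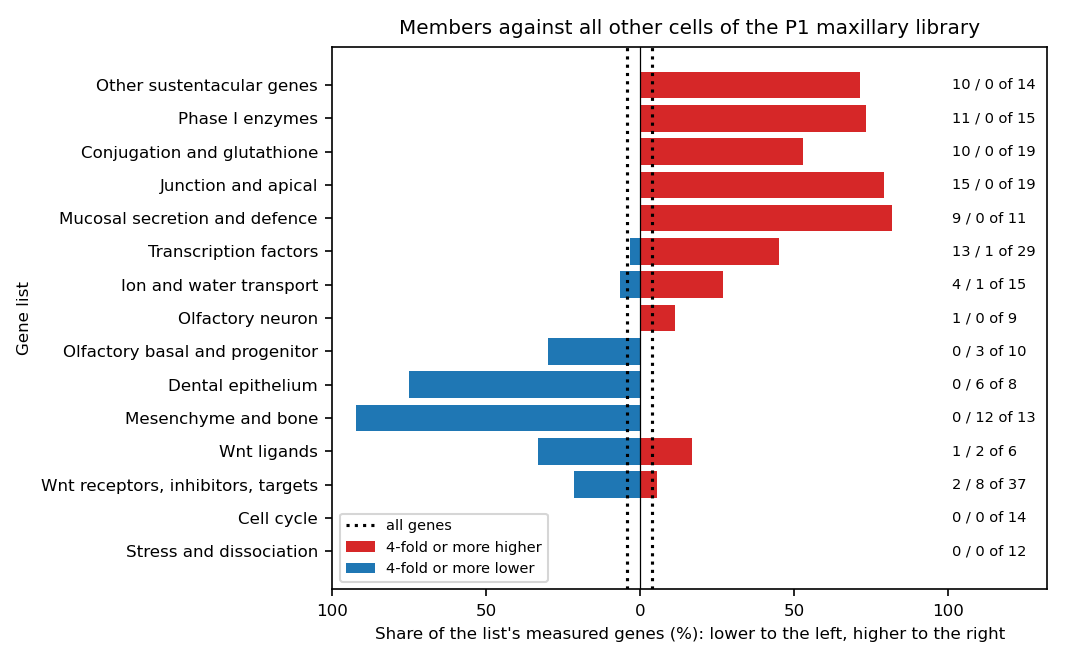
Share of each list's measured genes that were at least 4-fold higher (right) or lower (left) in the sustentacular-like cells than in all other cells of the library, with the counts at the right as higher / lower of tested; dotted lines mark the 3.88% and 4.51% of all genes. Mucosal, junction and enzyme lists lie to the right, dental epithelium (6 of 8 lower, 0 of 3 without shared barcodes) and mesenchyme (12 of 13 lower, 9 of 11 without) to the left.

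Among 34 transcription factors 29 were tested, 13 were higher than in all other cells and Dlx5 was lower. These became 10 of 29 higher and none lower without the shared barcodes. Over all genes, 3.88% were higher than all other cells, 3.23% without the shared barcodes, and 1.78% were higher than the epithelium without them. Against the epithelium without shared barcodes 3 of 29 were higher: Elf5, an ETS factor of glandular epithelia (282 CPM, log2 ratio 3.65), Otx2 (359 CPM, 2.63) and Eya1, a transcriptional cofactor (809.8 CPM, 2.36). Nfib, of the nuclear factor I family, was the most abundant at 1111 CPM, at 1.61 to all other cells and 0.89 to that epithelium. Foxa2, Hnf4a, Nr1i2 and Nr1i3, the last 2 being xenobiotic receptors of the liver, had no UMI in the cells. The list summed to 5413 CPM in the cells and 6772 CPM in the epithelial cells with at least 3 UMIs of Wfdc18.

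Markers of other cell types differed by type. Over all genes, 4.51% were lower than in all other cells and 3.56% without the shared barcodes. Against the epithelium these shares were 2.69% and 1.79%. Of 11 olfactory basal and progenitor genes, 10 were tested, none was higher and 3 were lower than in all other cells (2 of 10 without the shared barcodes), with 4 of 10 lower than in the epithelium without shared barcodes. Krt14 and Krt5, keratins of basal cells, had 11 and 14 UMIs in the 293 cells, which is 7.32 and 9.32 CPM against 1408 and 1327 CPM in the other epithelium, and 894 and 929 CPM without the shared barcodes. Both genes are among the 4 that chose the other epithelium, so their high level in that reference was set by its choice. Of the dental epithelium list 6 of 8 were lower than in all other cells, but 0 of 3 without the shared barcodes, where Amelx stood at -1.60. Of the same list 8 of 8 were lower than in the epithelium, and 4 of 5 without shared barcodes. Amelx, the main enamel matrix protein, had 8 UMIs (5.32 CPM) against 4504 CPM in the epithelium and 104 CPM without the shared barcodes. Calb1, a calcium-binding protein of ameloblasts, had no UMI and was at least 579-fold lower than the epithelium and at least 53.8-fold lower without shared barcodes, at the floor of 3 counts over the group. Of 13 mesenchymal genes 12 were lower than in all other cells, and 9 of 11 without the shared barcodes, the collagens by the rule. Immune markers summed to 75.9 CPM in the cells and 12438 CPM in immune cells, led by Lyz2 at 20.6 CPM, with Cd74 at 0. Endothelial markers summed to 22.0 CPM against 4492 CPM in endothelial cells.

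Neuron markers summed to 857 CPM in the cells, 862 CPM in all other cells and 297 CPM in the other epithelium, led by Ebf1 at 230.2 CPM. Omp, the defining gene of mature olfactory neurons, had 2 UMIs and Cnga4 none. At least 3 UMIs of 2 of these genes were held by 36 cells, with a median depth of 8473.5 UMIs. Against the epithelium Gap43, Gng13 and Ebf1 were higher, but they stood at 0.76, 0.46 and 0.01 without shared barcodes. Without those 36 cells Gap43 and Ebf1 stood at -0.10 and -0.93. Both genes are in the list that chose the 36 cells, so this fall was set by the choice. The part of neuronal RNA in the ratios was not tested. A few cells carried most of the UMIs of some genes. Bpifa1, a secreted airway protein, had 2021 CPM, of which 86.4% lay in 10 cells; in 18 cells with at least 10 UMIs it stood at 36036 CPM and in the other 275 at 22.5 CPM. The same 18 cells had 1703 CPM of Reg3g, an antimicrobial lectin, against 71.9 CPM, and 4461 CPM of Cbr2 against 1794 CPM. Without them the log2 ratio of Bpifa1 to all other cells was -1.49, a fall set by choosing them on this gene. Haemoglobin was similar: Hbb-bs, at 3614 CPM, stood at 180173 CPM in 7 cells. Of the nasal gland list, 6 of 15 genes were tested and 3, which were Scgb1c1, Aqp5 and Bpifa1, were higher than all other cells, Tac1 and Sox9 were lower, and 9 of the 15 were at 0. Without the shared barcodes 3 of 4 were higher and none lower. Over all genes, 3.88% were higher than all other cells and 3.23% without the shared barcodes. Of the respiratory ciliated and secretory list 3 of 8 were higher (Sec14l3, Cyp2f2 and Reg3g). Against the epithelium 2 of 9 were higher (Sec14l3 and Cyp2f2) and none lower. Without shared barcodes none of 9 was higher than the epithelium and 5, the ciliated genes Ccdc153, Tppp3, Rsph1, Dynlrb2 and Foxj1, were lower. The list summed to 605 CPM in the cells and 2124 CPM in the epithelial cells with at least 3 UMIs of Wfdc18. Higher than all other cells were, of the microvillar and tuft list 1 of 2 (Atp6v1b1), and of the list for gland-like epithelium with Wfdc18 3 of 4 (Elf5, Krt19 and Wfdc2). Of that last list, 1 of 6 was higher than the epithelium without shared barcodes (Elf5), and Wfdc18 and Ltf were lower. Without the shared barcodes the ratio of Krt19 to all other cells was 0.99, of Reg3g 1.23 and of Wfdc2 2.45.

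The cells varied in the 2 cytochromes. A UMI of Cyp2a5 or Cyp2g1 was held by 235 cells, and 58 were members through Cbr2 and Ermn alone. Depth was alike, with medians of 3667 and 3819 UMIs. Because Cyp2a5 and Cyp2g1 defined the division, the following levels are a description of the same cells. Sult1c1 had 135 UMIs in the cells with a cytochrome and 0 in those without, and Acsm4, a medium-chain acyl-CoA synthetase, 169 and 2. Gstm5 stood at 628 against 46.5 CPM, Abca13 at 291 against 46.5 CPM, Papss2, which makes the sulfate donor, at 373 against 64.4 CPM, and Rarb, a retinoic acid receptor, at 283 against 46.5 CPM. Ugt2a1 followed them at 371 against 100.2 CPM. All of these genes but Ugt2a1 were picked as among the 12 with the largest ratio in this division. That they were higher where a cytochrome was seen was set by that choice. Gstm5 was detected in 31.5% of the cells with a cytochrome and 19.0% of the others, a smaller gap than that of its level. Higher in the cells without were Bpifa1 (6041 against 1103 CPM), Krt19 (351 against 58.0 CPM), Nrxn3, a synaptic adhesion gene (387 against 59.7 CPM), and Wnt4 (369 against 148 CPM). Bpifa1 was nevertheless detected in 10.3% of the cells without and 12.3% of those with a cytochrome, and Krt19 in 17.2% and 18.3%, so these levels rested on few cells. Bpifa1, Krt19 and Nrxn3 were likewise picked as among the 12 genes with the smallest ratio. Otx2 (360.4 and 351 CPM), Pax6 (123 and 122 CPM) and Epcam (956 and 848 CPM) had intervals of the ratio that included 0 on the log2 scale. Gstm1 went the other way from Gstm5, at 4890.1 against 7680.4 CPM.

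The Wnt genes are the subject of the study. Of 19 ligands 10 had a UMI in the cells and 6 were tested against all other cells. Wnt4 was higher (189 CPM, log2 ratio 2.25) and Wnt6 and Wnt5a were lower (without the shared barcodes, Wnt5a alone), but Wnt4 stood at 0.43 against the other epithelium and -0.03 without shared barcodes. Wnt10a, Wnt6 and Wnt3a, ligands of the dental epithelium, had no UMI, against 55.7, 167 and 58.4 CPM in the other epithelium and 25.9, 48.7 and 8.11 CPM without shared barcodes. Of 45 receptors, inhibitors and targets 37 were tested. Fzd8, a Frizzled receptor (73.2 CPM, 2.85), and Rnf43, a ligase that removes Frizzled from the membrane (59.2 CPM, 2.38), were higher than all other cells and 8 of the 37 were lower, where 3.88% and 4.51% of all genes were. This became 4 of 33 lower without the shared barcodes. Sostdc1, a secreted Wnt and BMP inhibitor, was lower in every comparison, at 2.66 CPM against 335 CPM in the epithelium and 186 CPM without shared barcodes. Against that last epithelium it was the only one of 27 tested that was called, and none of the ligands was, Wnt6 being under the limit of 50 CPM there. Dkk1, Dkk4, Sost, Notum, Rspo2 and Rspo4 had no UMI in the cells.

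Cell cycle and dissociation genes came last. None of 14 and none of 12 was 4-fold different from all other cells or from the other epithelium. The median log2 ratios were -0.72 and 1.05 to the other epithelium, shared barcodes included, and -0.30 and -0.20 to all other cells. Top2a, a mitotic topoisomerase, was at 109.8 CPM against 156 CPM. Of the Notch list, Hey1, a Notch target, was higher than the other epithelium (145 against 19.9 CPM), at 1.82 without shared barcodes. Of the retinoid list, Crabp2, a retinoic acid-binding protein, was higher than all other cells (324 CPM, 3.07), and Rarb was higher than the epithelium with and without shared barcodes (2.83 and 2.48).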

How the data were processed

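The authors deposited raw UMI counts for 32285 genes from 10x 3′ libraries, made with Cell Ranger 7.0.1 per the file headers, with reads aligned to mm10 per the study's methods, which also state later doublet and mitochondrial filters that the deposited counts do not carry. From these counts levels were computed as UMIs summed over a group per 1000000 UMIs of that group (CPM) with exact Poisson intervals, and ratios with exact binomial intervals (95%), in Python 3.11.15 with numpy 2.4.6, scipy 1.17.1 and pandas 2.3.3. A gene was tested when the mean of both levels was at least 10 CPM, and called at 4-fold with at least 50 CPM in the higher group. A count of 0 was set to a floor of 3 counts. Other epithelium was a non-member with at least 3 UMIs of at least 2 of Epcam, Cdh1, Krt5 and Krt14 and at most 5 collagen UMIs; immune and endothelial cells were chosen in the same way from 4 markers each. Doublets were scored with Scrublet (scanpy 1.11.5): its automatic threshold marked 0 barcodes, so none was removed, and the 2425 top-scoring passing barcodes (14.7%; 25 members, 8.53%) were left out as an alternative. The members and 31 gene lists were chosen with earlier results of these data known. Genes were named by rule: the 4 rule genes, the 25 with the largest ratio to all other cells at 100 CPM or more, the 10 highest and 10 lowest against the other epithelium, the 10 most abundant, and the 4 highest of each list; the genes of the cytochrome split, of the gene clusters and others named as called or at 0 in a list were added after their values were seen. The comparison was tested on simulated data. Some genes are not reported here.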

Additional observations from a re-analysis of the deposited data

How the results depend on the processing

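No paired analysis was possible because each stage and jaw had 1 library and the result comes from no test. The 293 members became 195 with at least 10 rule UMIs, and between 202 and 326 under the other limits. Genes higher than all other cells numbered 396 and lower 460. These became 794 lower at 20 CPM, 1166 higher and 1491 lower with over 3 UMIs as the only minimum, and 779 higher and 708 lower at 2-fold. Against the other epithelium 412 were higher and 267 lower. These became 180 higher without shared barcodes, 458 lower at 20 CPM, 1383 higher and 868 lower with over 3 UMIs as the only minimum, and 773 higher and 501 lower at 2-fold. More genes enter at the lower limits by construction. Among the called genes followed under the alternative settings, the sign turned for Bpifa1, Cyp2f2, Ebf1 and Gap43. Bpifa1 stood at -1.49 to all other cells and -3.29 to the epithelium without the 18 cells with at least 10 of its UMIs. Cyp2f2 stood at -0.0678 to the epithelium without shared barcodes. Ebf1 and Gap43 stood at -0.93 and -0.10 to the epithelium without the 36 cells with neuron markers. The cells left out were chosen by UMIs of Bpifa1 or of the neuron list, so the falls of Bpifa1, Ebf1 and Gap43 were set by that choice. Leaving out the neuron-marked, globin-rich or Bpifa1-rich cells was chosen after seeing the data. Depth limits genes near the floor of 3 counts.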
